A study of Mus musculus with 8 samples.

Results

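The genes described here are 40 genes of DNA replication and mitosis. The list holds S phase and G2/M genes chosen by name, with earlier results of these data known. They are 40 of the 37018 genes and transcripts on the arrays, and each is represented by its brightest probe. All 40 were measured by 54 probes in all, 11 of them by more than 1 probe, and all 40 had the mean log2 intensity of at least 6 that was required for a test. RNA came from peritoneal cells of C57BL/6 mice, cultured as peritoneal macrophages, either WT or FURIN KO (LysMCre-fur fl/fl, WT littermates as controls), and either left without stimulus or given 1 μg/ml LPS, a bacterial cell wall component, for 1, 4 or 24 h. In LysMCre mice the Cre recombinase is expressed from the Lyz2 locus, so that the floxed gene is lost in myeloid cells that use this locus and not in lymphocytes. The age of the mice and the number of mice behind each culture were not given in the sources used here. Times were taken from the titles of the samples, since the growth protocol mentions only 4 h. Each of the 4 time points had 2 two-colour arrays, called biological replicates in the labels, and every array set KO against WT RNA of its time point. KO RNA was in Cy5 on the array of replicate 1 and in Cy3 on that of replicate 2, so that replicate and dye cannot be told apart.

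Before a cell divides, the MCM helicase is loaded on replication origins by Cdc6 and Cdt1, cyclin E and the E2F transcription factors open S phase, and enzymes of deoxynucleotide synthesis supply the polymerases. In G2 and mitosis, cyclins A and B activate Cdk1, and the polo-like and aurora kinases, the spindle checkpoint and the anaphase-promoting complex then order the separation of the chromosomes. Most of these transcripts are low in resting cells and rise with each cycle, and resident peritoneal macrophages are largely resting cells that can divide after a stimulus. Many promoters of replication genes hold E2F sites, and many promoters of mitotic genes hold CCAAT boxes together with a cell cycle homology region, abbreviated CHR.

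RefSeq promoter windows of build GRCm38.p6, which run from 250 bases before to 50 bases after a transcription start, were found for 33 of the 40 genes. They were searched on both strands for CCAAT and, as the CHR, for TTTGAA. The letters searched as E2F sites were TTTCCCGC, TTTGGCGC, TTTCGCGC and TTTGCCGC. Reverse complements counted as matches, and overlapping matches were allowed. A CCAAT match and a CHR match were both present in 13 of the 18 mitosis genes with a window (72.2%), and in 1 of the 15 genes of replication and of entry into S phase (6.67%). Among all 27025 genes with a window, 8.97% held both. An E2F match was present in 7 of the same 15 genes (46.7%) and in 1 of the 18 mitosis genes (5.56%), Cdk1, where the share of all genes was 2.6%. Of the 7, 6 were among the 7 licensing and helicase genes with a window, 1 was among the 6 DNA synthesis genes, and none was among the 2 genes of entry into S phase. Counted over single windows, the share of all 32851 windows was 37.4% for CCAAT, 17.9% for CHR and 2.26% for E2F. A match is a description of these letters and does not show that a factor bound there. Below are the 250 bases before the start for 6 members that the results turn on, 5′ to 3′ on the strand of the gene. They were chosen to show the mitotic arrangement (Cdc20, Ube2c, Cdk1), the gene with a time course of its own (Mki67) and the licensing genes (Mcm5, Cdc6). Capitals mark CCAAT and CHR matches in the first 4, also the E2F match in Cdk1, and E2F matches alone in Mcm5 and Cdc6. In Ube2c, a match of CCAAT on each strand overlaps, and in Mcm5 a pair of E2F matches on opposite strands overlaps.
Cdc20 (chr4:118437344-118437593, minus strand): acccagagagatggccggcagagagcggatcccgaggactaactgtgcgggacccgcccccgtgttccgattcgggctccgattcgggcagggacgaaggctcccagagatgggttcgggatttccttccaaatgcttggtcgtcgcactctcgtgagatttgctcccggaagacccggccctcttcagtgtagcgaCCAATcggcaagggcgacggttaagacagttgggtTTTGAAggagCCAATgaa
Ube2c (chr2:164769679-164769928, plus strand): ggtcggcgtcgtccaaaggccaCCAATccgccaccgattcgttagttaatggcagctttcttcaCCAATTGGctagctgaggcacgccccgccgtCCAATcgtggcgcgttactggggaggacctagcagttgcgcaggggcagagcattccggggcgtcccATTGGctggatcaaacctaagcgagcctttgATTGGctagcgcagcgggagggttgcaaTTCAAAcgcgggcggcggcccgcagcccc
Cdk1 (chr10:69352913-69353162, minus strand): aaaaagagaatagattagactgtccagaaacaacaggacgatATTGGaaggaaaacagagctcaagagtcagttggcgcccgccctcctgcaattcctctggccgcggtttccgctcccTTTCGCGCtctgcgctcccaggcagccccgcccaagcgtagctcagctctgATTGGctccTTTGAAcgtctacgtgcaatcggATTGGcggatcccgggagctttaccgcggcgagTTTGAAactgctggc
Mki67 (chr7:135716380-135716629, minus strand): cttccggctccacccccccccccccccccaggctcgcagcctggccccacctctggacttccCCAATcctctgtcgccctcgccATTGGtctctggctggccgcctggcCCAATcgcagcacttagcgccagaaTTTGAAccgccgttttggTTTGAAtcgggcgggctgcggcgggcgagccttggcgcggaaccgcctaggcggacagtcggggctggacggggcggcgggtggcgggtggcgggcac
Mcm5 (chr8:75109259-75109508, plus strand): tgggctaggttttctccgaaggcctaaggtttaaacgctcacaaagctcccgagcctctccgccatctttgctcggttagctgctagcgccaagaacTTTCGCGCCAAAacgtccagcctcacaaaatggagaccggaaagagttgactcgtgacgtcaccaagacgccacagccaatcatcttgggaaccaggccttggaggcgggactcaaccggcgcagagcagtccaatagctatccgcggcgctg
Cdc6 (chr11:98907901-98908150, plus strand): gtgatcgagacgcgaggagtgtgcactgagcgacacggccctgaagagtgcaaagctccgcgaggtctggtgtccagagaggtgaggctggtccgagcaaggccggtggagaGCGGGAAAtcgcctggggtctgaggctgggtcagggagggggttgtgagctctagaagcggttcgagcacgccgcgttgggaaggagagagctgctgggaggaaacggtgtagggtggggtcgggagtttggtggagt

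Between 43.8% and 51.3% of the gene spots of a channel were well above background, and no spot was saturated. The precision of every value is limited by the 2 arrays per time point. Of the 40 genes, 34 were well above background in all 16 channels. Aurkb, Bub1, Ccne2 and Cenpf were so in no unstimulated channel. The median SD between the 2 replicates of a gene was 0.129 on the log2 scale, with a highest value of 0.44. Furin itself was lower in the RNA labelled KO on the 6 arrays of 0, 1 and 24 h, with log2 KO/WT ratios between -0.85 and -0.55, but not on those of 4 h (0 and 0.33), so that KO at 4 h stands here for the RNA labelled KO. Lyz2, whose locus carries the Cre, had ratios between -1.85 and -0.74 on the 8 arrays.

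After 24 h of LPS the genes of replication and mitosis were higher in both genotypes. In WT macrophages 37 of the 40 genes were higher than in unstimulated cells and none was lower, with a median log2 change of 3.03 (8.18-fold). In KO macrophages 38 were higher and none lower, with a median of 2.95 (7.70-fold). Of all 36927 genes and transcripts tested, 13.5% were higher and 16.8% lower in WT, and 12.8% were higher and 15.9% lower in KO, with a median change near 0 (-0.01 in both). The change was over 2-fold for 34 genes in each genotype and over 8-fold for 21 in WT and 20 in KO. The values of 39 genes in WT and of 38 in KO were higher on both 24 h arrays than on both unstimulated arrays, where 27.8% and 27.3% of all genes did not overlap in this direction. The count in WT includes Cenpf, which was not well above background in any channel. In bulk RNA, a larger share of dividing cells and more of these transcripts in each cell cannot be told apart. The same unstimulated channels serve the comparisons at 1, 4 and 24 h, which are therefore not independent.

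**Figure D1:**
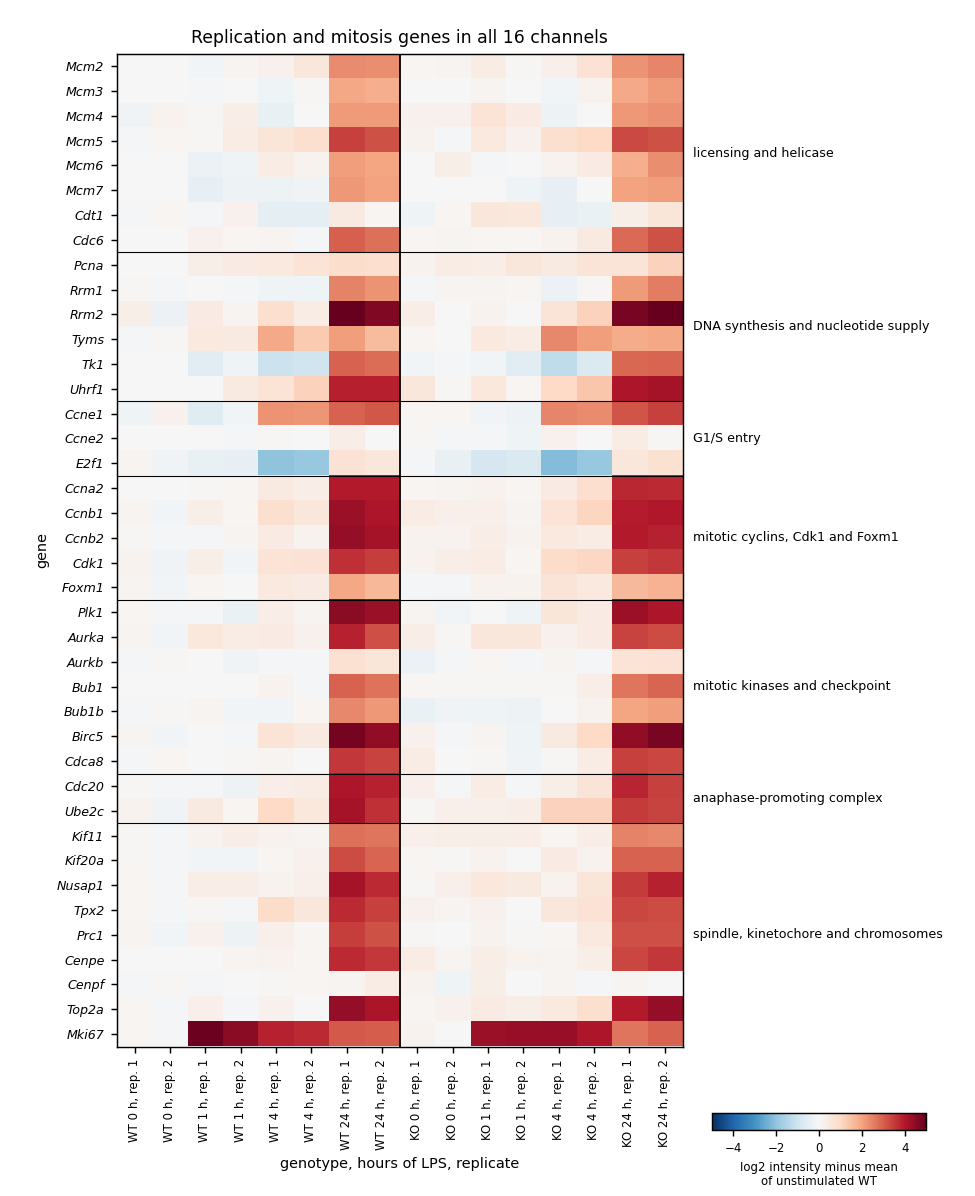
Log2 intensity of each of the 40 genes (rows, by role group) in each of the 16 channels (columns: genotype, hours of LPS, replicate), minus the mean of the 2 unstimulated WT values of that gene. Red is higher and blue lower. The 24 h columns of both genotypes are red for nearly all rows, Mki67 is red from 1 h on, and E2f1 and Tk1 are blue at 4 h.

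Among the 8 licensing and helicase genes, 7 rose in WT and 8 in KO at 24 h, with median log2 changes of 2.11 and 2.05. Mcm2, a subunit of the helicase ring, had log2 intensities of 9.05 and 9.03 in unstimulated WT and 9.15 and 9.16 in unstimulated KO. After 24 h they were 11.40 and 11.35 in WT and 11.29 and 11.47 in KO. The 24 h values lay apart from all others, and the change was 2.34 in WT (standard error 0.17, adjusted p = 1.27e-07) and 2.23 in KO (adjusted p = 2.13e-07). Mcm5, another subunit, had the largest change of the group, from 9.35 and 9.54 in WT and 9.61 and 9.34 in KO to 12.84 and 12.65 in WT and 12.76 and 12.62 in KO. Its change was 3.30 in WT and 3.22 in KO (standard error 0.15, adjusted p = 2.21e-09 and 3.19e-09). Cdc6, which brings the helicase to origins, was close to background before LPS, at 6.71 and 6.66 in WT and 6.78 and 6.84 in KO, and reached 9.68, 9.43, 9.50 and 9.87 at 24 h. It was well above background in 1 of the 2 unstimulated WT channels and in both of KO. The fitted change was 2.87 in WT, where it rests in part on that dim channel, and 2.88 in KO (adjusted p = 3.99e-09 and 4.50e-09), and none of its 24 h values overlapped the others. A second probe, well above background in 4 of the 16 channels, gave fitted changes of 1.44 and 1.54, which start from signals near background. Mcm7 rose by 2.08 in both genotypes (adjusted p = 5.59e-08 and 5.93e-08), from values between 11.24 and 11.30 to values between 13.27 and 13.43. Cdt1, the partner of Cdc6 in loading the helicase, had the smallest change of the group: 0.28 in WT (adjusted p = 0.216) and 0.52 in KO (adjusted p = 0.0181). The call in KO was lost without the unstimulated array of replicate 1 (0.37) and without the 24 h array of replicate 2 (0.36).

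All 6 genes of DNA synthesis and nucleotide supply rose at 24 h in both genotypes, with medians of 2.62 in WT and 2.68 in KO. Rrm2, the regulated subunit of ribonucleotide reductase, had the largest change of the 40 genes. Its log2 intensities were 8.86 and 8.30 in unstimulated WT, 8.91 and 8.59 in unstimulated KO, and 13.62, 13.22, 13.35 and 13.86 at 24 h in the same order. The increase of 4.84 in WT (28.6-fold, standard error 0.25, adjusted p = 5.54e-09) and of 4.85 in KO (28.9-fold, adjusted p = 6.10e-09) far exceeded the spread between replicates. Uhrf1, which helps to maintain DNA methylation on newly made DNA, went from 7.89 and 7.93 in WT and 8.48 and 7.98 in KO to 11.81 and 11.82 in WT and 11.97 and 12.08 in KO. Its change was 3.90 in WT and 3.79 in KO (adjusted p = 8.84e-09 and 1.26e-08). A second Uhrf1 probe, well above background in 4 of the 16 channels, gave fitted changes of 1.26 and 1.48, which start from signals near background. Pcna, the sliding clamp of the polymerases, was already bright before LPS, at 13.64 and 13.60 in WT and 13.80 and 13.98 in KO. At 24 h it was at 14.50 and 14.47 in WT and 14.25 and 14.79 in KO, a change of 0.86 (adjusted p = 0.000531) and 0.63 (adjusted p = 0.00585), the smallest of this group. The call in KO was lost without the 24 h array of replicate 2 (0.36) and without the unstimulated array of replicate 1 (0.54).

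In the group of mitotic cyclins, Cdk1 and Foxm1, all 5 genes rose at 24 h, with medians of 3.97 in WT and 3.64 in KO. Ccnb1, a cyclin that activates Cdk1 at the entry into mitosis, had log2 intensities of 7.22 and 6.95 in unstimulated WT and 7.46 and 7.33 in unstimulated KO. At 24 h these were 11.40 and 11.12 in WT and 10.99 and 11.08 in KO, all above every earlier value. The change was 4.18 in WT (18.1-fold, standard error 0.15, adjusted p = 2.52e-10) and 3.64 in KO (12.5-fold, adjusted p = 9.48e-10). Its other probes, well above background in 10 and 7 channels, gave 3.30 and 2.81 in WT and 3.06 and 2.45 in KO, from signals near background. Ccnb2 changed by 4.27 and 3.72 and Ccna2 by 3.97 and 3.65 in WT and KO (adjusted p at most 1.17e-10). Their unstimulated values lay between 7.26 and 7.99 and their 24 h values between 11.001 and 12.181. Cdk1, the kinase itself, went from 6.92 and 6.53 in WT and 6.88 and 7.05 in KO to 10.36 and 10.17 in WT and 10.13 and 10.27 in KO, by 3.54 (adjusted p = 1.55e-09) and 3.24 (adjusted p = 3.91e-09). Of the other two Cdk1 probes, one was well above background in none of the 16 channels, and the other was so in 4. The fitted changes of the latter, 0.84 in WT and 0.92 in KO, start from signals near background and were smaller. Foxm1, a transcription factor of G2 genes, changed least, by 1.81 in WT and 1.75 in KO (adjusted p = 6.45e-08 and 9.27e-08). Its second probe, well above background in 8 channels, gave 0.94 and 0.81, from signals near background.

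All 7 mitotic kinases and checkpoint genes rose at 24 h, with medians of 3.45 in WT and 3.11 in KO. Birc5 (survivin, of the chromosomal passenger complex) had the largest change, from 9.03 and 8.77 in WT and 9.14 and 8.79 in KO to 13.70 and 13.32 in WT and 13.33 and 13.64 in KO. That is an increase of 4.61 in WT (24.4-fold, adjusted p = 1.59e-09) and 4.53 in KO (23.0-fold, adjusted p = 2.20e-09). Its other probes gave 4.11 and 3.23 in WT and 3.91 and 2.97 in KO, the latter of each pair from a probe well above background in 12 channels. Plk1, the polo-like kinase, was at 7.82 and 7.63 in WT and 7.86 and 7.61 in KO before LPS. It reached 12.23 and 12.06 in WT and 12.01 and 11.76 in KO, so that no 24 h value was near an unstimulated one. Its change was 4.42 in WT and 4.15 in KO (standard error 0.14, adjusted p = 5.43e-11 and 1.06e-10). Aurka, a kinase of the spindle poles, rose by 3.54 in WT and 3.11 in KO (adjusted p = 3.56e-09 and 1.34e-08). Bub1, a checkpoint kinase, was not well above background in any channel before 24 h and was so in all 4 channels at 24 h, which makes it at least 6.99-fold higher in WT and at least 6.47-fold higher in KO. Here the mean of the bright group was set against the lowest signal well above background in each unstimulated channel, or against the gene's own signal where that was higher. These bounds used Aquantile normalization between arrays, in place of the quantile normalization of the other values. By the same bound Aurkb, the kinase of the passenger complex, was at least 1.36-fold higher in WT and 1.34-fold in KO.

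Both genes of the anaphase-promoting complex rose at 24 h. Cdc20, its activator, was at 8.22 and 8.09 in WT and 8.41 and 8.10 in KO before LPS, and at 12.212 and 12.003 in WT and 11.98 and 11.56 in KO after 24 h. The change was 3.95 in WT (adjusted p = 1.40e-09) and 3.52 in KO (adjusted p = 4.30e-09). Ube2c, its ubiquitin-conjugating enzyme, went from 7.66 and 7.29 in WT and 7.53 and 7.73 in KO to 11.62 and 11.12 in WT and 10.98 and 10.86 in KO. Its 24 h values were all above the unstimulated ones, and the change was 3.90 in WT and 3.28 in KO (standard error 0.19, adjusted p = 3.06e-09 and 1.63e-08). A second Ube2c probe gave 4.37 and 3.86.

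Of the 9 genes of spindle, kinetochore and chromosomes, 8 rose at 24 h in each genotype, with medians of 3.31 in WT and 3.12 in KO. Top2a, the topoisomerase that untangles sister chromatids, had log2 intensities of 7.08 and 6.86 in unstimulated WT and 7.08 and 7.17 in unstimulated KO. At 24 h it was at 11.35 and 11.06 in WT and 10.95 and 11.35 in KO, an increase of 4.24 (18.9-fold, standard error 0.17, adjusted p = 6.60e-10) and 4.02 (16.3-fold, adjusted p = 1.22e-09). Nusap1, a protein of spindle microtubules, rose by 3.94 in WT and 3.51 in KO (adjusted p = 1.23e-09 and 3.91e-09), and Cenpe, a kinetochore motor, by 3.64 and 3.18 (adjusted p = 9.83e-11 and 3.77e-10). Tpx2, which activates Aurka on the spindle, rose by 3.58 and 3.12 (adjusted p = 5.44e-10 and 2.07e-09). Its second probe gave much smaller fitted changes, 0.46 in WT and 0.56 in KO, from signals near background. That probe was well above background in 7 of the 16 channels. Kif11, the motor that separates the spindle poles, was not well above background in unstimulated WT. By the bound used for Bub1, it was at least 5.99-fold higher at 24 h in WT. Cenpf, another kinetochore protein, was not well above background in any of the 16 channels. The same held for Ccne2, so that no change is given for these 2 genes.

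**Figure D2:**
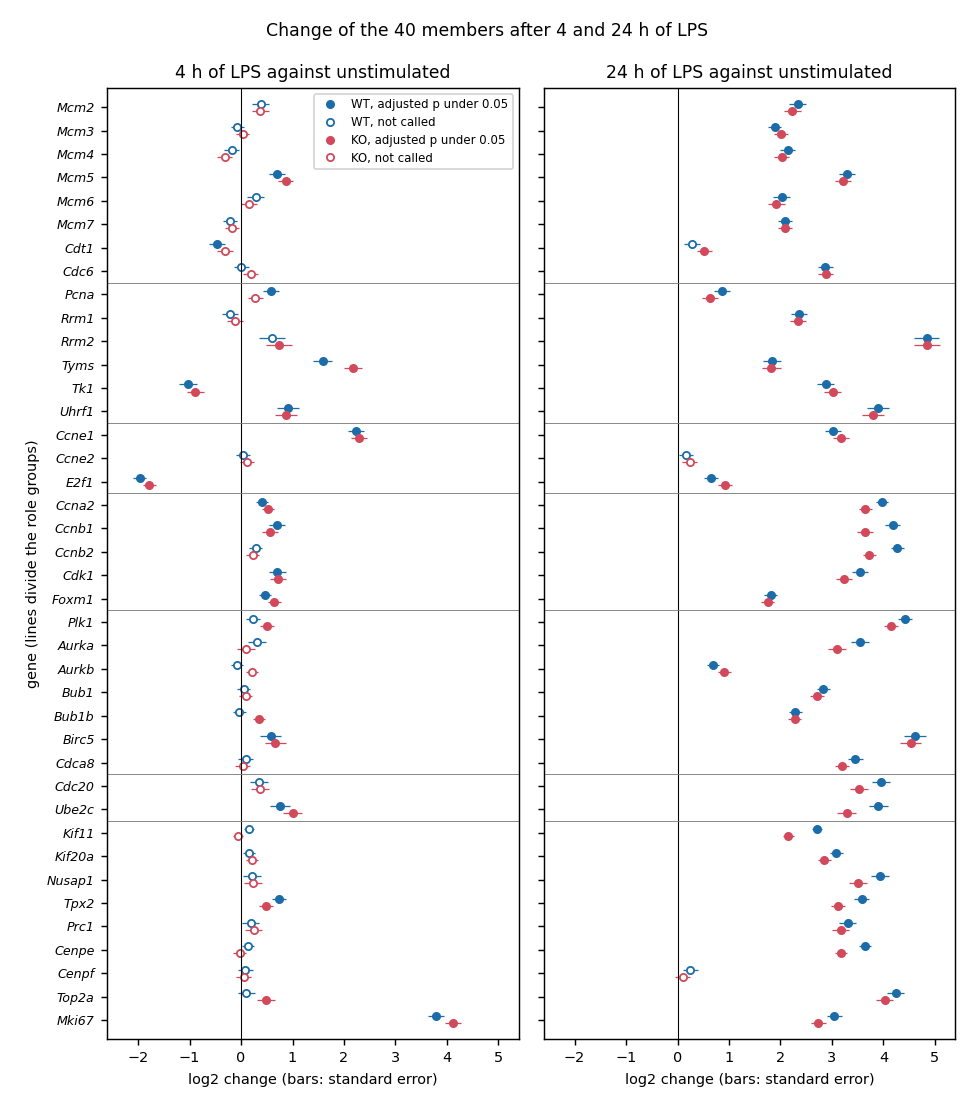
Log2 change of each of the 40 genes against unstimulated cells after 4 h (left) and 24 h (right) of LPS, in WT (blue) and KO (red), with bars for the standard error. Filled points have an adjusted p under 0.05. At 24 h 37 points in WT and 38 in KO are filled and all lie to the right of 0. At 4 h most points lie near 0, with Mki67, Ccne1 and Tyms far to the right and E2f1 and Tk1 to the left.

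Most of the change fell between 4 and 24 h. Against 4 h, 35 genes were higher at 24 h and 1 lower in each genotype, with medians of 2.81 in WT and 2.57 in KO. Of all genes tested, 15.1% were higher and 14.6% lower in WT, and 15.7% and 15.1% in KO. The gene that was lower was Mki67, whose call in WT was lost with loess normalization alone and with processed signals, and Pcna, Tyms, Ccne2 and Cenpf did not pass the test. Ranked by this change among all 36927 genes and transcripts, 18 of the 40 genes stood among the first 100 in WT and 15 in KO. Rrm2 stood at rank 16 in WT and 15 in KO. This comparison and the one with unstimulated cells share the 24 h channels.

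At 4 h of LPS the genes gave a mixed picture. In WT 13 genes were higher and 3 lower than in unstimulated cells, and in KO 16 were higher and 2 lower, where 15.5% of all genes tested were higher and 19.2% lower in WT, and 16.3% and 19.7% in KO. Of these, 12 were called higher and 2 lower in both genotypes. The median change was only 0.23 in WT and 0.24 in KO, and most of these small increases rested on the scaling between arrays. With loess normalization alone, 6 genes were higher and 6 lower in WT, and 4 and 6 in KO. With the scanner's processed signals, 5 were higher and 8 lower in WT, and 4 and 7 in KO, and the median of all genes then moved by -0.12 in WT and -0.14 in KO. The share of all genes called under these scalings is not given, so the counts do not show whether the members differed from all genes. Higher under all 3 scalings were Mki67, Ccne1, Pcna and Tyms in WT, and Mki67, Ccne1 and Tyms in KO. Lower under all 3 were Tk1, E2f1 and Cdt1 in WT, and Tk1 and E2f1 in KO. Without the unstimulated array of replicate 2, 8 genes were higher and 2 lower in each genotype.

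Ccne1, the cyclin that drives entry into S phase, was the clearest early gene after Mki67. Its log2 intensities were 8.97 and 9.38 in WT and 9.28 and 9.28 in KO before LPS, and 8.58, 9.02, 9.05 and 8.91 at 1 h. At 4 h they were 11.40 and 11.40 in WT and 11.60 and 11.54 in KO, and at 24 h 12.12, 12.26, 12.31 and 12.59. The values at 4 h lay far above those at 0 and 1 h and below those at 24 h, with a change from 0 to 4 h of 2.23 in WT and 2.29 in KO (standard error 0.16, adjusted p = 7.02e-08 and 5.60e-08). A second Ccne1 probe gave 1.45 and 1.53. Tyms, thymidylate synthase, had values of 6.96 and 7.08 in WT and 7.13 and 7.04 in KO before LPS, 8.90 and 8.31 in WT and 9.40 and 9.12 in KO at 4 h, and 9.10, 8.61, 8.86 and 8.95 at 24 h. It had reached its level by 4 h, with a change of 1.59 in WT (adjusted p = 7.27e-06) and 2.18 in KO (adjusted p = 3.35e-07), and the change from 4 to 24 h did not pass the test (adjusted p = 0.388 and 0.176).

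E2f1, a transcription factor of S phase genes, and Tk1, thymidine kinase, fell before they rose. E2f1 was at 10.60 and 10.29 in unstimulated WT and 10.33 and 10.07 in unstimulated KO, and at 8.41 and 8.53 in WT and 8.29 and 8.54 in KO after 4 h. At 24 h its values of 11.15, 11.03, 11.02 and 11.22 were above all others. The change at 4 h was -1.97 in WT and -1.78 in KO (standard error 0.13, adjusted p = 3.77e-08 and 1.03e-07), and at 24 h 0.64 (adjusted p = 0.00160) and 0.92 (adjusted p = 8.86e-05). Tk1 was at 8.69 and 8.73 in WT and 8.58 and 8.62 in KO before LPS. At 4 h it was at 7.64 and 7.71 in WT and 7.45 and 7.97 in KO, and at 24 h at 11.68, 11.49, 11.59 and 11.64. The 4 h values were below every other value of the gene, a change of -1.03 in WT (adjusted p = 0.000197) and -0.89 in KO (adjusted p = 0.000666). Its change at 24 h was 2.88 in WT and 3.01 in KO.

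Mki67, the gene of the proliferation marker Ki-67, had a time course of its own. Its log2 intensities before LPS were 9.85 and 9.66 in WT and 9.93 and 9.73 in KO. After only 1 h they were 14.64 and 14.27 in WT and 14.06 and 14.10 in KO. At 4 h they were 13.61, 13.47, 14.10 and 13.79, and at 24 h 12.84, 12.77, 12.41 and 12.72, in the order WT, then KO. All LPS values were far above the unstimulated ones, and the 1 h change was 4.70 in WT (26.0-fold, standard error 0.15, adjusted p = 2.66e-10) and 4.26 in KO (19.1-fold, adjusted p = 9.68e-10). Of the 36927 genes and transcripts tested, 27 had a larger increase at 1 h in each genotype. The second probe of the gene gave the same course, with changes at 1, 4 and 24 h of 4.75, 3.84 and 3.08 in WT and of 4.36, 4.18 and 2.80 in KO. Both probes were named through the same RefSeq transcript, and their sequences were not examined. Whether other transcripts add to this signal was not tested. From 4 to 24 h the change was -1.38 in KO (adjusted p = 6.64e-06), a call kept under all 3 scalings. In WT it was -0.74 (adjusted p = 0.00152), and this call was lost with loess normalization alone (-0.41) and with processed signals (-0.58). No other member was called higher at 1 h in WT, where 3.36% of all genes were higher and 5.16% lower. In KO, Cdt1 was also higher at 1 h (0.60, adjusted p = 0.0279) and E2f1 lower (-0.53, adjusted p = 0.0248), where 3.08% of all genes were higher and 4.45% lower. These 2 calls were lost when either 1 h array or the unstimulated array of replicate 1 was left out.

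**Figure D3:**
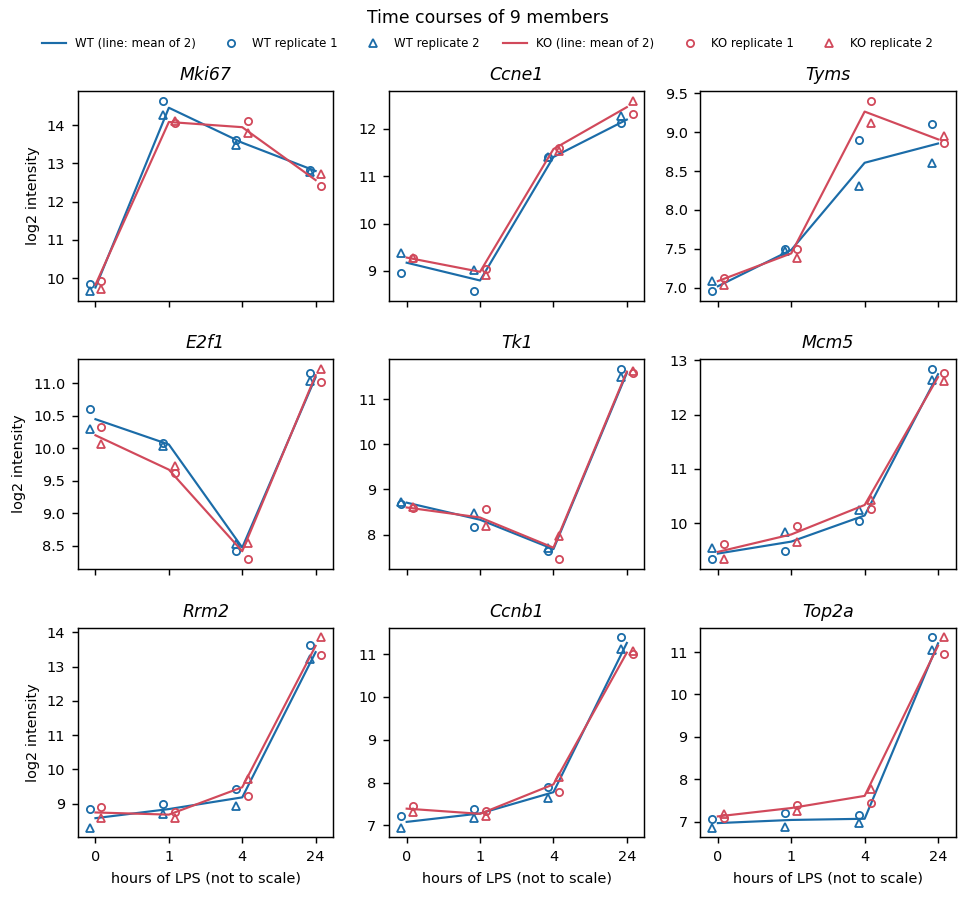
Log2 intensity of 9 genes in unstimulated cells and after 1, 4 and 24 h of LPS (steps not to scale), with a point for each channel (circles replicate 1, triangles replicate 2) and a line through the mean of the 2 replicates, WT in blue and KO in red. Mki67 rises at 1 h, Ccne1 and Tyms at 4 h, E2f1 and Tk1 dip at 4 h, and Mcm5, Rrm2, Ccnb1 and Top2a rise mainly between 4 and 24 h.

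Other genes of the same processes behaved alike at 24 h. Of 50 further replication genes, 47 were higher and 1 lower at 24 h in each genotype, with medians of 1.75 in WT and 1.81 in KO. Mybl2, a transcription factor of the cell cycle, had the largest increase (3.92 in WT and 3.83 in KO). Gins3, a subunit of the GINS complex of the helicase, was lower, by -0.65 in WT (adjusted p = 0.000706) and -0.70 in KO (adjusted p = 0.000376). The next smallest value in WT was that of the polymerase delta subunit Pold3 (0.22, adjusted p = 0.129), and in KO that of the checkpoint kinase Chek1 (0.08, adjusted p = 0.668). Of 62 further mitosis genes, 61 were tested, and 60 were higher in WT and 58 in KO, with none lower and medians of 2.26 and 2.01. Cdca3 (4.08 and 3.88) and the kinesin Kif22 (4.01 and 3.71) had the largest increases. The smallest value in both genotypes was that of Cdc25b, a phosphatase that activates Cdk1 (-0.12 in WT and -0.27 in KO, adjusted p = 0.697 and 0.313), followed by Ncapg of condensin in WT (0.41, adjusted p = 0.0229) and by the centromeric histone Cenpa in KO (0.23, adjusted p = 0.25). At 4 h, 15 replication genes were higher and 15 lower in WT (30% each), where 15.5% and 19.2% of all genes were, and 14 were higher and 12 lower in KO (28% and 24%, where 16.3% and 19.7% of all genes were). Of the mitosis genes, 6 were higher and 11 lower in WT (9.84% and 18%), and 7 and 10 in KO (11.5% and 16.4%), all below the shares of all genes. Cdc25b fell by 3.96 in WT and 3.78 in KO at 4 h, and Cenpa by 2.91 and 2.68.

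Markers of several cell types moved over the same times. The summed log2 intensity of 4 macrophage markers, all well above background, was between 17.99 and 18.18 before LPS and between 16.54 and 16.92 at 24 h, and Itgam, Csf1r and Mertk were each lower in both genotypes. That of 5 markers of large peritoneal macrophages, also all well above background, went from between 14.82 and 15.23 to between 13.12 and 13.88. All 6 B cell markers were well above background, with a sum between 16.002 and 16.699 before LPS and between 15.24 and 15.57 at 24 h. None of them was higher at 24 h than before LPS. At 4 h the sum was between 14.754 and 15.395. Against 4 h, 3 of the 6 were higher at 24 h and 1 lower in each genotype. Of all genes, 15.1% were higher and 14.6% lower in WT, and 15.7% and 15.1% in KO. Of the 4 macrophage markers, 1 was higher and 2 were lower against 4 h in each genotype. B cell transcripts were thus measured at every time. For 6 T and NK cell markers, of which Ncr1 was not well above background on both arrays of any group, the sum was between 12.09 and 12.65 before LPS and between 11.53 and 11.93 at 24 h. Mast cell markers (6 measured, Ms4a2 not well above background) went from between 12.88 and 13.74 to between 10.75 and 11.80. Of 4 neutrophil markers, S100a8 was higher at 24 h (3.77 in WT and 4.5 in KO), Elane was lower in both genotypes, and S100a9 and Retnlg were not well above background, with a sum between 11.74 and 12.09 before LPS and between 14.46 and 15.99 at 24 h. The sum of 12 markers of mesothelial cells and fibroblasts went from between 10.37 and 10.61 to between 11.38 and 11.78, and 5 of the 12 were well above background on both arrays of a genotype at 24 h. The sum of 3 dendritic cell markers went from between 11.6 and 12.7 to between 9.30 and 9.39, with 1 of the 3 called higher and 1 lower in each genotype. The 4 eosinophil markers, of which Prg2 and Epx were not well above background, had sums between 8.71 and 8.86 before LPS and between 8.47 and 8.71 at 24 h, and the 4 markers of steroid-producing cells between 11.6 and 12.8 and between 10.932 and 12.013. The part of these cells in the changes of the 40 genes was not tested.

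**Figure D4:**
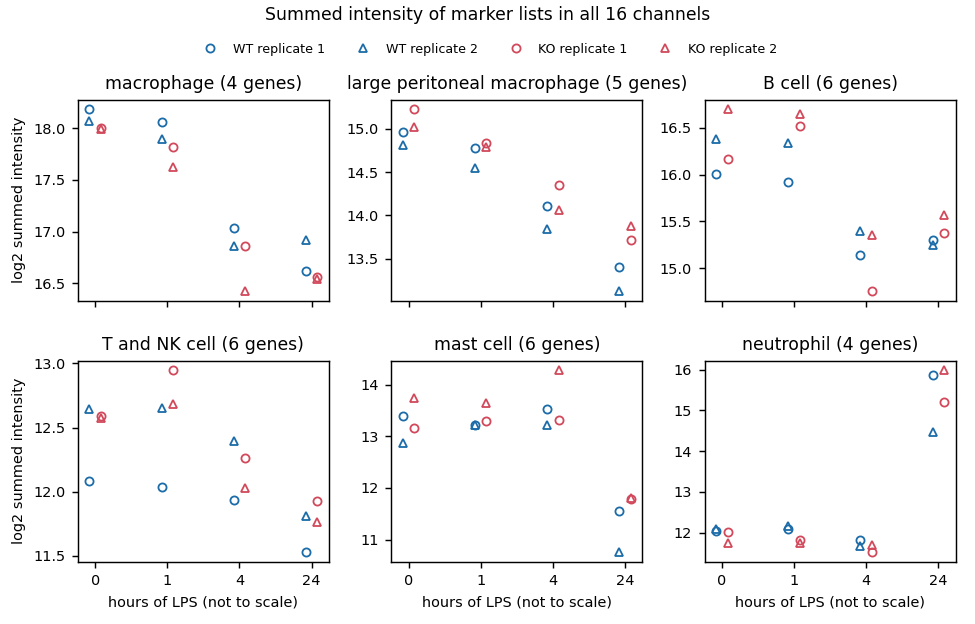
Log2 of the summed intensity of 6 marker lists in each of the 16 channels, in unstimulated cells and after 1, 4 and 24 h of LPS (steps not to scale), WT in blue and KO in red, circles for replicate 1 and triangles for replicate 2. The lists of macrophages, B cells, T and NK cells and mast cells are lower at 24 h than before LPS, and the neutrophil list, led by S100a8, is higher.

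The comparison of KO with WT at each time asked whether loss of FURIN changes these genes. None of the 40 passed the test with limma in unstimulated cells or after 1, 4 or 24 h of LPS, and none for the mean over the time points. Of all 36947 genes and transcripts tested, the share called without a replicate term was 0% in unstimulated cells and at 1 h. It was 0.00812% at 4 h, 0.0244% at 24 h and 0.563% for the mean. At an unadjusted p under 0.05, 2 of the 40 genes passed in unstimulated cells, where 5.75% of all genes did, and 5 at 1 h (5.46% of all genes). The members were 5 at 4 h (4.31%), 6 at 24 h (3.42%) and 6 for the mean (3935 of all 36947 genes). Student's 2-sample t-test of the study's methods gave 3, 2, 1 and 2 genes at an unadjusted p under 0.05 for the 4 times, where 4.62%, 4.75%, 3.07% and 4.1% of all genes passed, and none after adjustment. The genes well above background in all 4 channels of a time point numbered 34 in unstimulated cells. At 1 h there were 35, at 4 h 34 and at 24 h 38 such genes. The 95% intervals of the ratios of all of these lay within 2-fold in either direction, with a median half-width of 0.32 on the log2 scale. A miss of the threshold does not show that the genotypes were equal.

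With a term for the replicate number, which is also a dye term, 1 gene was called at 4 h, 1 at 24 h and 2 for the mean, where 0.568%, 0.585% and 6.01% of all genes were called. In unstimulated cells and at 1 h this fit called none of the 40. Of all genes, it called 0.476% higher and 0.587% lower in unstimulated cells, and 0.273% and 0.303% at 1 h. Top2a was the gene at 4 h, with ratios of 0.28 and 0.79 on the 2 arrays and a mean of 0.54 (standard error 0.18 and adjusted p = 0.951 without the term, adjusted p = 0.0410 with it). Its mean over the time points was 0.23 (adjusted p = 0.0200 with the term). Ube2c was the gene at 24 h, with ratios of -0.65 and -0.27 and a mean of -0.46 (95% interval -0.86 to -0.06, adjusted p = 1.00 without the term and 0.0381 with it). E2f1 had a mean over the time points of -0.17 (adjusted p = 0.257 without the term and 0.0478 with it). The largest ratio of the 40 genes at any time was that of Tyms at 4 h, 0.50 and 0.81 on the 2 arrays (mean 0.66, standard error 0.15, adjusted p = 0.459).

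In the mean of the 2 arrays at 24 h, most mitosis genes had ratios below 0 and most of the others above 0, a split that did not appear alike on each array. Ccne2 and Cenpf, not well above background in every channel at 24 h, are left out of these counts. Of the other 22 mitosis genes, 21 had a mean log2 KO/WT ratio below 0, with a median of -0.22 and a range from -0.46 (Ube2c) to 0.03 (Aurkb). Of the other 16 genes of replication and of entry into S phase, 3 were below 0, with a median of 0.05. Among the 61 further mitosis genes, bright or dim, 16 were above 0 (median -0.10), and among the 50 further replication genes 40 (median 0.08). With the replicate term, 2 of these mitosis genes were called lower, where 0.298% of all genes were. Without that term no single gene of these lists passed the test. The genes of a list share the same RNA, so that these counts are a description and not a test. On the array of replicate 1, 22 of the 22 mitosis genes were below 0 (median -0.35) and on that of replicate 2, 12 (median -0.02). Of the genes of replication and of entry into S phase, 13 of 16 were below 0 on the array of replicate 1 (median -0.14) and 1 on that of replicate 2 (median 0.30), so that the mitosis genes lay lower on each array and both lists lay lower on that of replicate 1. In unstimulated cells the medians of the genes well above background were 0.16 for the mitosis genes (0.08 on the array of replicate 1 and 0.16 on that of replicate 2) and 0.07 for the others (0.05 and 0.01). At 1 h they were 0.14 for the mitosis genes (0.09 and 0.10) and 0.12 for the others (0.32 and -0.04), so that the mitosis genes lay lower on the array of replicate 1 and higher on that of replicate 2. At 4 h they were 0.14 for the mitosis genes, with -0.0028 on the array of replicate 1 and 0.29 on that of replicate 2, and 0.10 for the others, with 0.04 and 0.18. These medians thus also depended on the array. Ccnb2 had ratios of -0.41 and -0.31 at 24 h (mean -0.36, 95% interval -0.62 to -0.10, adjusted p = 1.00), and Plk1 of -0.23 and -0.30 (mean -0.26, adjusted p = 1.00). The macrophage markers had a median ratio of -0.0016 at 24 h, the large peritoneal macrophage markers of 0.10, the B cell markers of 0.13 and the mast cell markers of 0.47. None of them was called at 24 h. The sum of the large peritoneal macrophage markers was then 13.72 and 13.88 in KO and 13.40 and 13.12 in WT. For the mean over the time points, 1 of these 5 was called higher and 1 of 4 macrophage markers lower, where 0.241% and 0.322% of all genes were. The part of these cells was not tested.

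**Figure D5:**
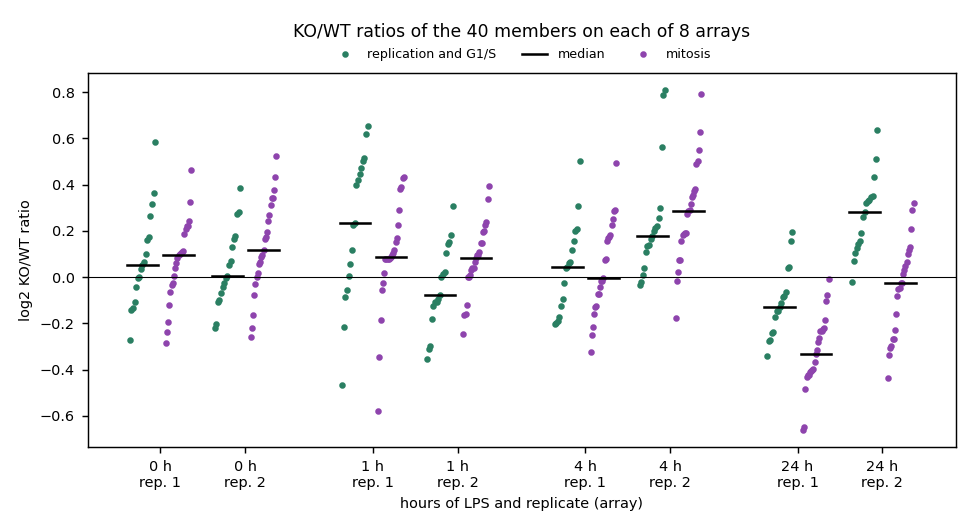
Log2 KO/WT ratio of each of the 40 genes on each of the 8 arrays (hours of LPS and replicate), genes of replication and of entry into S phase in green and mitosis genes in purple, sorted by value within each list, with a bar for the median. All 40 genes are drawn, also those near background. At 24 h the medians, with those genes included, are -0.13 and -0.33 on the array of replicate 1 and 0.28 and -0.03 on that of replicate 2.

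The difference in the LPS response, KO minus WT, was also tested. Without the replicate term, no member and no other gene passed at 1, 4 or 24 h (0% of all genes tested in each case). At an unadjusted p under 0.05 the members that passed were then 2, 2 and 7, where 1.4%, 2.9% and 3.33% of all genes did. With the term no member passed either, and no other gene at 1 h. Of all 36947 genes, 8 then had a positive and 5 a negative difference at 4 h, and 32 and 46 at 24 h. At an unadjusted p under 0.05 the term gave 3, 5 and 11 members, where 1404, 2405 and 2561 of all genes passed. In the 34 genes well above background in every unstimulated and 24 h channel, 27 differences at 24 h were negative, with a median of -0.13. The arrays of replicate 1 gave 32 of 34 below 0 (median -0.34) and those of replicate 2 gave 17 (median 0.0029), so that replicate 1 carried most of this count. The mitosis genes had 19 of 19 below 0 and a median of -0.31, with -0.47 in replicate 1 and -0.20 in replicate 2. The others had 8 of 15 and a median of -0.01, with -0.21 and 0.21. The lowest value of these genes was that of Ube2c (-0.61, 95% interval -1.18 to -0.05), followed by Ccnb2 (-0.55) and Ccnb1 (-0.54). For 31 of the 34 genes the interval at 24 h excluded a difference of 2-fold or more. These differences use the same unstimulated and 24 h arrays as the ratios above and are no separate support for them.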

How the data were processed

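Two-colour Agilent arrays of mouse peritoneal macrophages were used, 2 per time point. The authors extracted the scans with Agilent Feature Extraction 10.7.3 (submitters' processing notes) and deposited the intensity of each spot in both dyes, without normalization between arrays. The authors also deposited log2 ratios of Cy5 to Cy3, described as normalized by loess and quantile methods, which served only as an alternative. Median intensities were corrected with normexp (offset 50), normalized by loess within and by quantile between arrays in limma 3.58.1 (R 4.3.3), and turned into 1 value per probe. Outlier spots were left out. Probes were named through the RefSeq table of GRCm38.p6 (27509 of 55681), and the brightest probe stood for a gene. A gene entered the tests if its log2 intensity averaged 6 or more. Ratios of KO to WT were fitted over the 8 arrays by lmFit and eBayes (4 residual degrees of freedom, 36947 genes and transcripts). LPS effects came from the separate-channel fit of limma with statmod 1.5.0 (within-spot correlation 0.108, 36927 genes and transcripts). Two-sided p-values were adjusted after Benjamini and Hochberg over every gene in the fit, and adjusted values under 0.05 were called.

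The replicate numbers recur at each time point and mark the dye orientation in the labels. The difference between replicates in the KO/WT ratio correlated across genes between time points (Pearson's r 0.475 to 0.679 over 6 pairs), and the number was therefore also fitted as a block. Genes are not independent replicates in this check. All 8 arrays were on 1 slide, without a slide or scan batch.

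The members, the role groups and the lists of other genes and of markers were chosen with earlier results of these data known. Values per channel are given for Mki67, Top2a, Cdk1, Ccnb1, Pcna and Mcm2 and for up to 3 further members of each role group with the largest change at 24 h, of which Mcm7, Ccnb2, Ccna2, Foxm1, Aurka, Nusap1, Cenpe and Tpx2 are given in shorter form. Members that the replicate term called, and members named for an early change, are also named. The 2 largest increases and decreases at 24 h are named for the other lists. One result under this rule is not reported here. The signs, medians and intervals of KO/WT ratios and response differences were summarized over members well above background in every channel compared. This restriction was chosen after seeing the data. It was not applied to the numbers of members that passed a test, adjusted or unadjusted, which cover every member. The script was tested on simulated data. No genome positions are given for probes, since the array design uses another build. Kif14, Cd68, Tpsab1 and Ly6g were not matched to a probe and are not analysed here.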

Additional observations from a re-analysis of the deposited data

How the results depend on the processing

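Each count of called members was recomputed with a replicate block, Aquantile, loess normalization alone, no background subtraction, the scanner's processed signals, no intensity filter, a filter on genes well above background in both dyes of at least 4 arrays, the mean of a gene's probes, Student's t-test, the authors' normalized ratios (KO/WT and response differences only) and without each array. The replicate number, fitted as a block for the pairing of dye orientations, gave 1 member for KO/WT at 4 h, 1 at 24 h and 2 for the mean, where none was called without it, and 2 at 1 h of LPS in WT, and it left the other counts within 1.5 times. With loess alone, 2 members were called at 1 h in WT and 10 at 4 h in KO, and with processed signals 11 at 4 h in KO. These counts, too, are given without the share of all genes called. Mki67 at 24 against 4 h in WT was no longer called with either (-0.41 and -0.58). Bub1b at 4 h in KO with processed signals had a change of -0.0043 in place of 0.35. With processed signals the median of all genes at 24 h moved by -0.17 in WT and -0.37 in KO, and relative to it the member median was 3.95 and 3.76. Student's t-test of single genes, with 2 values a group, gave 0 members at 1 h in either genotype, 2 and 1 at 4 h in WT and KO, 1 and 9 at 24 h, and 0 for 24 against 4 h. Of all 36927 genes and transcripts tested, this adjusted t-test called 1837 for WT after 4 h of LPS, while KO had 787. The 24 h totals were 12 for WT, with 612 for KO. Between 4 and 24 h, WT had 7 such genes, KO had 1, and the 1 h comparisons had none. At an unadjusted p under 0.05 the t-test gave 36 members at 24 h in each genotype. The share of all genes passing at that threshold was 27.9% in WT and 27% in KO. Leaving out 1 array gave between 10 and 16 members at 4 h in WT and between 10 and 18 in KO, between 1 and 3 at 1 h in KO, 1 in WT, 37 at 24 h in WT and between 36 and 38 in KO, between 36 and 37 for 24 against 4 h, and 0 for every KO/WT ratio and response difference. Of 185 single calls of members, 1 changed sign under any alternative. At 24 h the median of all 23 mitosis genes in the KO/WT ratio stayed between -0.23 and -0.20 under the alternatives that keep both 24 h arrays, and was -0.03 without LPS 24 h replicate 1 and -0.33 without replicate 2. The 2 arrays per time point, and signals near background for Aurkb, Bub1, Kif11, Ccne2 and Cenpf, limit the precision.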
